A study of Mus musculus with 40 samples.

Results

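The neutrophil granule and myeloid priming genes described here are 10 mouse genes that were chosen by name: Mpo, Elane, Prtn3, Ctsg, S100a8, S100a9, Ms4a3, Cebpa, Cebpe and Mcpt8. All 10 were found among the 49585 gene rows of the count table. They were followed in bone marrow cells from femurs and tibiae of mice with a homozygous Mbd3 deletion (Mbd3_Del/Del, here Mbd3del) and of control mice with floxed Mbd3 (Mbd3_Flox/Flox), all on a mixed C57BL6/129Ola background and 46 to 51 days old. Mbd3 encodes a subunit of the NuRD chromatin remodelling and deacetylase complex. Each of 10 mice, 5 per genotype, gave 1 library of each of 4 sorted populations, so that there were 40 libraries in 8 groups of 5. Haematopoietic stem cells (HSCs) had the phenotype CD45+ CD150+ CD48- EPCR+. The other populations were sorted as Lin- Sca-1+ c-Kit+ Flt3hi B220- cells: lymphoid-primed multipotent progenitors (LMPPs) without IL-7Ra, all-lymphoid progenitors (ALPs) with IL-7Ra but not Ly6D, and the B cell-biased progenitors (BLPs) with both. No source used here gives the promoter or cell type that drove the deletion, and each library is a pool of sorted cells.

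Neutrophils carry their antimicrobial enzymes in granules that are filled in order as the cell matures. The azurophil (primary) granules are filled first, at the promyelocyte stage, with myeloperoxidase and the serine proteases neutrophil elastase, proteinase 3 and cathepsin G. Low-level transcription of such genes in progenitors that are not yet committed is known as myeloid priming, and LMPPs are known to keep some myeloid potential while ALPs and BLPs are steps towards lymphocytes. Cebpa encodes the transcription factor C/EBPα, which starts the granulocyte programme, and Cebpe encodes C/EBPε, which acts later in granulocyte maturation. S100a8 and S100a9 encode the 2 chains of calprotectin, abundant in the cytosol of mature neutrophils. Ms4a3 encodes a membrane protein of granulocyte and monocyte progenitors, and Mcpt8 encodes a mast cell protease family member made mainly by basophils.

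Gene counts per library ranged from 2974305 to 9082610, with 12845 to 15745 genes detected, so that 3 counts, used here as the lowest level told apart from 0, correspond to 0.330 to 1.01 CPM (counts scaled to a common library total, here without TMM scaling). These limits cover counting error only, because the reads carry no molecular identifiers. Mbd3 itself was at 0 to 3.24 CPM in the 20 Mbd3del libraries, against 8.18 to 165 CPM in the 20 control libraries, on the same scale without TMM. Genes of the sort gates followed the labels. Il7r was at 395 ± 143 CPM in Mbd3del ALPs and 1.66 ± 1.58 CPM in Mbd3del LMPPs, and at 577 ± 159 CPM in control ALPs and 3.15 ± 2.33 CPM in control LMPPs (n = 5 each, SD). Slamf1, which encodes CD150, was at 0.0306 ± 0.0684 CPM in Mbd3del LMPPs and 93.3 ± 41.3 CPM in Mbd3del HSCs (n = 5 each, SD). The sex on the labels of 2 control mice, mouse10372 and mouse10381, went against their sex-linked transcripts, and Mbd3del LMPPs are titled as floxed, against their genotype field and their Mbd3 counts. In bulk libraries, fewer cells of a type and less RNA per cell cannot be told apart.

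The members fell into 4 patterns. Mpo was low in HSCs, Ctsg, Cebpa and Mcpt8 were at or near 0 there, and all 4 were present in LMPPs. Mpo had at least 3 counts in each of the 10 HSC libraries, at 1.26 to 4.07 CPM. Prtn3 was already high in HSCs and was lower in ALPs and BLPs. S100a8 and S100a9 were high in single HSC and LMPP libraries, and Elane, Ms4a3 and Cebpe were at 0 in at least 35 of the 40 libraries. The plot of levels by library shows all of these values.

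**Figure D1:**
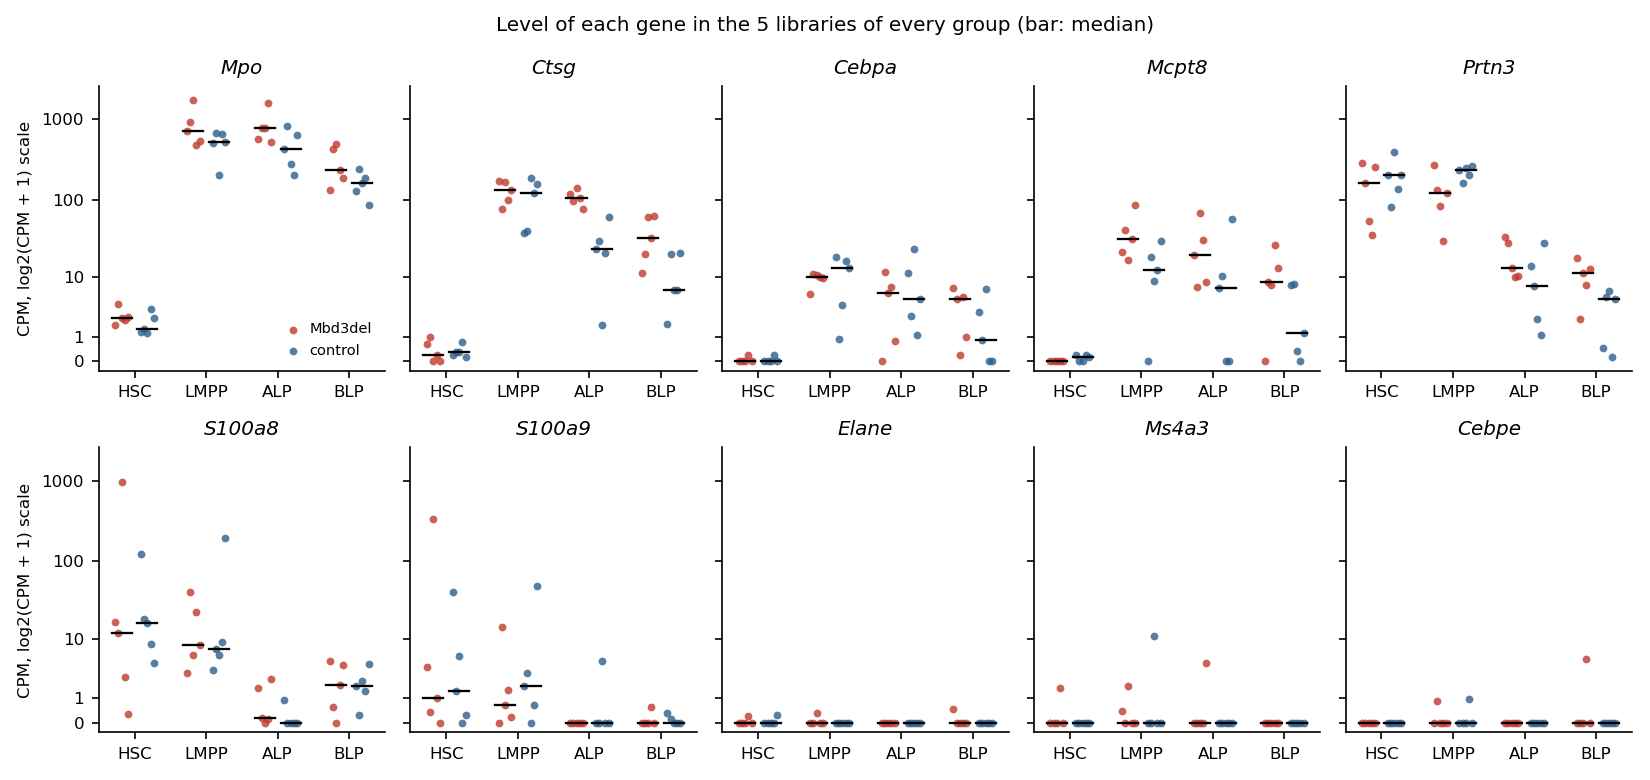
Level of each of the 10 genes (CPM after TMM scaling, drawn on a log2(CPM + 1) scale) in the 5 Mbd3del (red) and 5 control (blue) libraries of each population; a point is 1 library and a bar is the group median. Mpo and Ctsg stand far above their HSC levels in LMPPs, ALPs and BLPs, Prtn3 falls away after LMPPs, and Elane stays at or near 0.

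On the scale of CPM per kilobase of exon, which allows genes to be compared, Mpo was the highest member in LMPPs, at 257 in Mbd3del and 149.6 in control LMPPs. Ctsg was at 125 and 106 CPM per kilobase in the same groups, and Prtn3 at 73.6 and 129. Mcpt8 was at 39.5 and 14.1 CPM per kilobase and Cebpa at 3.597 and 4.07. Several of the genes are neighbours in the genome (GRCm38, GENCODE M21 annotation). Prtn3 (chr10:79874476-79883174, plus strand) and Elane (chr10:79886247-79888215, plus strand) lie 3073 bases apart. Ctsg (chr14:56099881-56102574) and Mcpt8 (chr14:56082166-56085273), both on the minus strand, lie 14608 bases apart, and S100a8 (chr3:90668978-90670035) and S100a9 (chr3:90692632-90695721) 22597 bases. Mpo (chr11:87793581-87804413, plus strand), Cebpa (chr7:35119293-35121928, plus strand), Cebpe (chr14:54710360-54712174, minus strand) and Ms4a3 (chr19:11629496-11640851, minus strand) lie apart from the other members. All 10 are annotated as protein coding.

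The 250 bases before the RefSeq transcription start are shown for Mpo and Ctsg, the members that rose in LMPPs of both genotypes, and for Prtn3, the contrast to them, which was chosen after its values were seen. The sequences are from RefSeq (GRCm38.p6), written 5′ to 3′ on the strand of the gene. The window is chr11:87793534-87793783 (plus strand) for Mpo, chr14:56102575-56102824 (minus strand) for Ctsg and chr10:79879417-79879666 (plus strand) for Prtn3. The windows end at the RefSeq start, which for Mpo and Prtn3 lies inside the GENCODE M21 span given above, so the Mpo window runs past the GENCODE start and the Prtn3 window lies wholly within the gene. Capitals mark the letters GAGGAA (a core of PU.1 sites), TAACNG (Myb) and TGTGGT (Runx, read as ACCACA where it lies on the opposite strand), searched on both strands together with TTGCNNAA (C/EBP).

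Mpo: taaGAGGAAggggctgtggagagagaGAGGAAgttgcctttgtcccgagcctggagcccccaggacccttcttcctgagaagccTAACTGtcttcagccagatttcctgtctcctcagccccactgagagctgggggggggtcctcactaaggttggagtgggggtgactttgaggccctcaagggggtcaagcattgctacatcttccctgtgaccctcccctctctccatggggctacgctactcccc

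Ctsg: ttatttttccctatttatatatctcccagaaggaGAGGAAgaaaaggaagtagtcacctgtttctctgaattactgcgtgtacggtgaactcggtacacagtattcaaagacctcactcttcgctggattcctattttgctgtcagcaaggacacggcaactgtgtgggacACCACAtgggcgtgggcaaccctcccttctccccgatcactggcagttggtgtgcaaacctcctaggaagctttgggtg

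Prtn3: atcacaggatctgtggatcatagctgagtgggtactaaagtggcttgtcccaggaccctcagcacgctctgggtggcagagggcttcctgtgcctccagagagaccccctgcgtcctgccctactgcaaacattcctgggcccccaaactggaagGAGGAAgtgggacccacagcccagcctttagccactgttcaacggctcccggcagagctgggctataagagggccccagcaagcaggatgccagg

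No match overlapped another in these windows. Mpo held GAGGAA at bases 4 to 9 and 27 to 32 and TAACNG at bases 85 to 90, counted from the first base shown. Ctsg held GAGGAA at bases 35 to 40 and TGTGGT at bases 172 to 177, and Prtn3 held GAGGAA at bases 156 to 161. GAGGAA was present in 6 of the 9 members with a RefSeq window (Mpo, Elane, Prtn3, Ctsg, S100a8 and Mcpt8) and in 23.3% of 32851 promoter windows of the same length. TAACNG was in 3 of 9 members and 19.8% of the windows, TGTGGT in 3 of 9 and 14%, and TTGCNNAA in 1 of 9, S100a9, and 9.56%. Mpo and Prtn3, which follow different courses below, both held GAGGAA. A match is a description of letters and was not tested as a binding site.

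At the first step, from HSCs to LMPPs, Mpo and Ctsg rose in both genotypes, while Prtn3 was not called and Elane had at most 2 counts in a group. Mpo, myeloperoxidase, was at 723, 926, 1739.6, 484 and 536 CPM in the 5 Mbd3del LMPP libraries, against 1.80, 4.07, 2.41, 2.28 and 2.505 CPM in the HSC libraries of the same mice. In control mice it was at 508, 673, 201, 662 and 518 CPM in LMPPs, against 1.31, 1.501, 1.26, 3.47 and 2.48 CPM in HSCs. Every LMPP library exceeded every HSC library, and the LMPP mean was 337-fold the HSC mean in Mbd3del mice and 256-fold in control mice. The log2 fold change of LMPPs over HSCs was 8.44 ± 0.46 (SE) in Mbd3del mice (edgeR adjusted p = 6.11e-08) and 7.96 ± 0.45 in control mice (adjusted p = 3.30e-07). Reads that overlap the antisense gene Gm11505 cannot be told apart from Mpo without strand information, but Gm11505 reached at most 11.8 CPM.

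Ctsg, cathepsin G, followed the same course. It was at 172, 76.5, 168, 98.0 and 130 CPM in Mbd3del LMPPs, against 0.653, 1.02, 0, 0.208 and 0 CPM in Mbd3del HSCs. Control LMPPs had 38.5, 40.3, 189, 122 and 156 CPM, against 0.187, 0.300, 0.315, 0.730 and 0.124 CPM in control HSCs. The HSC values come from at most 4 counts in a library, so they lie close to the floor. The groups did not overlap in either genotype, and the log2 fold change was 8.67 ± 0.67 in Mbd3del mice (edgeR adjusted p = 1.17e-06) and 8.32 ± 0.71 in control mice (adjusted p = 1.39e-05).

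Cebpa was low but present in every LMPP library. It was at 5.76, 11.2, 10.7, 9.94 and 9.80 CPM in Mbd3del LMPPs and at 18.6, 0.903, 4.03, 16.8 and 13.3 CPM in control LMPPs. HSCs held 1 Cebpa count in all 5 Mbd3del libraries together and 1 in all 5 control libraries. The 313 Cebpa counts of Mbd3del LMPPs were 270-fold above that single count after scaling (95% counting interval 48.0 to 10685), and the 383 counts of control LMPPs 314-fold (56.1 to 12452). These intervals cover counting error in pooled counts only, not the spread between mice. In Mbd3del mice Cebpa rose by the edgeR test (adjusted p = 0.000975). In control mice it did not pass the filter on low counts, and without that filter its adjusted p was 0.00678 with edgeR.

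Mcpt8, next to Ctsg on chromosome 14, was at 21.7, 41.5, 16.8, 32.3 and 84.8 CPM in Mbd3del LMPPs and had no count in Mbd3del HSCs. Against the floor of 3 counts over the group, Mbd3del LMPPs were at least 360-fold higher (1252 counts), and the rise passed the edgeR test (adjusted p = 9.15e-05). Control LMPPs had 0, 18.8, 8.83, 12.6 and 30.0 CPM, and control HSCs had 3 counts in all. The ratio of those counts was 142 (95% counting interval 48.2 to 690), and the edgeR adjusted p without the filter was 0.0100. The interval and the 360-fold value rest on counts pooled over mice and do not cover the spread between mice. One control LMPP library, that of mouse10357, lay at 0 and so overlapped the HSC libraries.

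In Mbd3del mice 4 of the 6 members that passed the filter rose from HSCs to LMPPs and none fell, where 2.99% of all genes tested rose. In control mice 2 of the 5 tested members rose and none fell, where 2.82% of all genes rose. Ctsg, Cebpa and Mcpt8 had at most 4 counts in any HSC library and could pass the filter only through the LMPP libraries, so nothing is read from these counts of members. Mpo, Ctsg, Cebpa and Mcpt8 were also the members whose Mbd3del LMPP libraries all lay above the Mbd3del HSC libraries, as 4.12% of all genes did. In control mice this held for Mpo and Ctsg, with 3.67% of all genes that passed the filter, and also for Cebpa, which did not pass it. The other members did not move with them. Prtn3 had a log2 fold change of -0.32 ± 0.57 in Mbd3del mice (edgeR adjusted p = 0.828) and 0.13 ± 0.34 in control mice (adjusted p = 0.907).

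Prtn3, proteinase 3, is a serine protease of the same granules as cathepsin G, yet its transcript was abundant in stem cells. Mbd3del HSCs had 288, 163, 53.8, 35.9 and 257 CPM and control HSCs had 204, 81.6, 397, 135 and 202 CPM. Levels in LMPPs were 271, 132, 83.9, 29.8 and 121 CPM in Mbd3del mice and 238, 163, 249.6, 202 and 265 CPM in control mice. Both populations overlapped broadly, and in Mbd3del mice the 2 lowest HSC libraries and the 2 lowest LMPP libraries came from the same mice, mouse10365 and mouse10376. These are the 2 Mbd3del mice labelled female, so mouse and sex cannot be told apart here. The opposite-strand gene Plppr3 overlaps Prtn3 and averaged 3.43 to 30.8 CPM over the 8 groups, and reads from the shared stretch cannot be assigned without strand.

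At the step from LMPPs to ALPs, Prtn3 fell in both genotypes. ALPs had 34.3, 28.0, 13.4, 10.2 and 10.5 CPM in Mbd3del mice and 14.1, 7.54, 2.33, 1.096 and 28.1 CPM in control mice. Each mouse had less Prtn3 in its ALPs than in its LMPPs, 5 of 5 in both genotypes, and in control mice the groups did not overlap. The log2 fold change was -2.75 ± 0.54 in Mbd3del mice (edgeR adjusted p = 0.0131) and -4.38 ± 0.68 in control mice (adjusted p = 0.00446). Without Mbd3del mouse10361 or mouse10384 the adjusted p was 0.0567 or 0.0588, and without both control mice with doubtful sex labels, mouse10372 and mouse10381, it was 0.0632.

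Mpo, Ctsg, Cebpa and Mcpt8 were not called at this step in either genotype. ALPs had 568, 783, 773, 1611 and 523 CPM of Mpo in Mbd3del mice and 428, 835, 277, 206 and 637 CPM in control mice, overlapping the LMPP libraries. The log2 fold change of Mpo in ALPs over LMPPs was -0.064 in Mbd3del mice (95% interval -0.86 to 0.73) and -0.094 in control mice (-0.94 to 0.75). Pools of cells gated on IL-7Ra thus still held Mpo RNA, and the intervals leave room for a change in either direction. Ctsg was at 118, 95.3, 139, 105 and 77.2 CPM in Mbd3del ALPs and at 23.5, 30.4, 1.81, 21.2 and 60.8 CPM in control ALPs. Its log2 fold change over LMPPs was -0.28 ± 0.26 in Mbd3del mice (edgeR adjusted p = 0.834) and -1.98 ± 0.68 in control mice, with a lower value in 5 of 5 control mice (unadjusted p = 0.0105, adjusted p = 0.341). Cebpa spanned 0 to 11.9 CPM in Mbd3del ALPs and 1.096 to 24.03 CPM in control ALPs, and Mcpt8 spanned 7.32 to 69.0 CPM and 0 to 57.6 CPM in the same groups.

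Of the 6 members tested at this step in each genotype, 1 fell in Mbd3del mice (1.07% of all genes fell) and 2 fell in control mice (0.469% of all genes fell). The second in control mice was S100a8, with a log2 fold change of -7.80 ± 1.65 (edgeR adjusted p = 0.0348). S100a8 had 6 counts in all 5 control ALP libraries together and could pass the filter only through the LMPP libraries. Nothing is therefore read from these counts of members. The S100a8 call was lost when any 1 of the 5 control mice was left out, with adjusted p from 0.0699 to 0.597. It was also lost with the replicate block (adjusted p = 0.188). All S100a8 values in ALPs lay below all values in LMPPs, in Mbd3del mice as in control mice, where 2.66% and 1.68% of all genes did so.

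At the last step, from ALPs to BLPs, no member was called in either genotype with edgeR and the filter on low counts, while 0.129% of all genes fell in Mbd3del mice and 0.0275% in control mice. Mpo was at 131, 432, 500.5, 237 and 185 CPM in Mbd3del BLPs and at 127, 243, 161, 184 and 85.4 CPM in control BLPs. Each of the 10 mice had less Mpo in BLPs than in ALPs. The log2 fold change was -1.52 ± 0.38 in Mbd3del mice (edgeR unadjusted p = 0.00127, adjusted p = 0.116) and -1.59 ± 0.38 in control mice (unadjusted p = 0.000757, adjusted p = 0.192). Ctsg was at 11.5, 20.5, 60.1, 32.8 and 62.3 CPM in Mbd3del BLPs, below every Mbd3del ALP library, and its log2 fold change was -1.51 ± 0.41 (edgeR unadjusted p = 0.00230, adjusted p = 0.164). Control BLPs had 1.88, 20.4, 6.70, 6.70 and 20.9 CPM of Ctsg, which overlapped control ALPs. Mpo and Ctsg were the 2 of 6 tested members with an unadjusted p under 0.05 in Mbd3del mice, where 7.75% of all genes had one, and DESeq2 called both. Both also had no overlap between the groups, as 0.978% of all genes. In control mice 1 of 5 tested members, Mpo, had an unadjusted p under 0.05, where 4.32% of all genes had one, and both DESeq2 (adjusted p = 0.0136) and edgeR without the filter (adjusted p = 0.0217) called it. Cebpa spanned 0.198 to 7.22 CPM in Mbd3del BLPs and 0 to 6.86 CPM in control BLPs, and Mcpt8 spanned 0 to 26.5 CPM and 0 to 7.96 CPM in the same groups.

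Over both steps together the loss was called. In BLPs over LMPPs, Mpo, Prtn3 and Ctsg fell in both genotypes, 3 of 6 tested members in each, where 3.01% of all genes fell in Mbd3del mice and 1.23% in control mice. In control mice Prtn3 reached 3 counts in only 4 of the 5 BLP libraries and could pass the filter only through the LMPP libraries. Nothing is therefore read from these counts of members. Mpo had a log2 fold change of -1.57 ± 0.41 in Mbd3del mice (edgeR adjusted p = 0.0293) and -1.68 ± 0.34 in control mice (adjusted p = 0.0128). The LMPP mean of Mpo was 2.97-fold the BLP mean in Mbd3del mice and 3.20-fold in control mice. Prtn3 was at 18.4, 2.31, 11.3, 7.72 and 12.8 CPM in Mbd3del BLPs and at 0.470, 5.31, 6.37, 0.134 and 4.91 CPM in control BLPs, below every LMPP library of its genotype. Its log2 fold change was -3.58 ± 0.58 in Mbd3del mice (edgeR adjusted p = 0.00130) and -6.05 ± 0.74 in control mice (adjusted p = 0.000345). Ctsg had -1.78 ± 0.42 in Mbd3del mice (edgeR adjusted p = 0.0181) and -3.28 ± 0.68 in control mice (adjusted p = 0.0165). The Prtn3 calls held without each mouse in turn. Prtn3 was the only call left without mouse10360 of the Mbd3del mice (adjusted p = 0.0909 for Mpo and 0.0733 for Ctsg), mouse10380 (0.0656 and 0.0893) or mouse10381 (0.0742 and 0.0573) of the control mice. The Mpo call was also lost without mouse10361 (adjusted p = 0.0616) or mouse10384 (0.0622) in Mbd3del mice and without mouse10357 (0.0849) in control mice. The Ctsg call was lost without mouse10376 (0.0534) in Mbd3del mice and without mouse10372 (0.0600) in control mice, and with both mouse10372 and mouse10381 left out it had an adjusted p of 0.193. In Mbd3del mice the Mpo call was also lost with no filter on low counts (adjusted p = 0.0717) and the Ctsg call in the joint fit of all 40 libraries (0.0760).

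**Figure D2:**
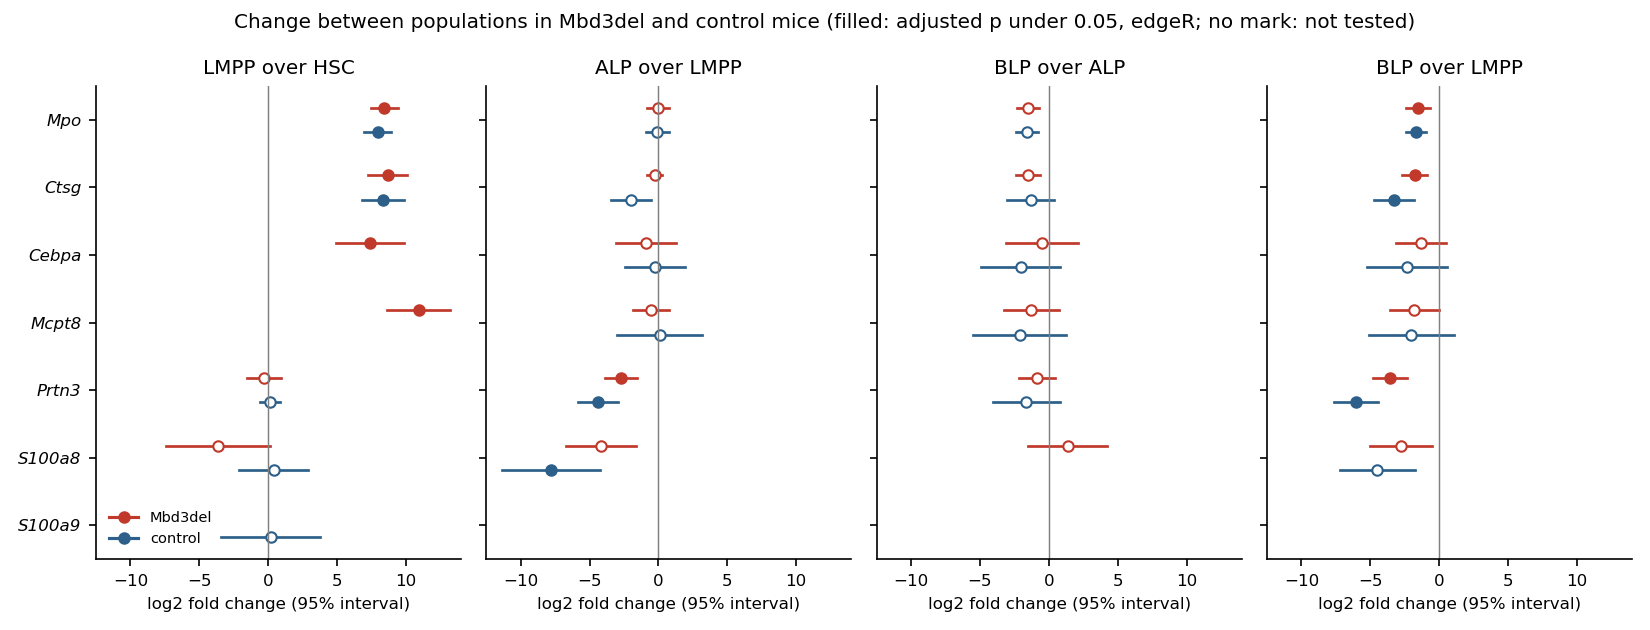
Log2 fold change with its 95% interval (horizontal axis) of the 7 members tested in at least 1 comparison, for LMPPs over HSCs, ALPs over LMPPs, BLPs over ALPs and BLPs over LMPPs, in Mbd3del (red) and control mice (blue); filled points have an edgeR adjusted p under 0.05 and members below the count filter have no point. The rise of Mpo and Ctsg at the first step is larger than any later change of theirs, and Prtn3 is called only in ALPs and BLPs over LMPPs.

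Ranked along the 4 populations, Mpo had its lowest level in HSCs, its highest in LMPPs and ALPs, which did not differ beyond their spread, and a middle level in BLPs. The group means of Mpo in HSCs, LMPPs, ALPs and BLPs were 2.61 ± 0.859, 882 ± 510, 852 ± 440 and 297 ± 161 CPM in Mbd3del mice (n = 5 each, SD). In control mice they were 2.003 ± 0.957, 512 ± 191, 477 ± 259 and 160.1 ± 59.3 CPM (n = 5 each, SD). Prtn3 had another order, with HSCs and LMPPs, which did not differ beyond their spread, above ALPs and BLPs. Its means in the same order were 159.5 ± 115, 127 ± 89.5, 19.3 ± 11.1 and 10.5 ± 5.96 CPM in Mbd3del mice and 204 ± 119, 223 ± 41.3, 10.6 ± 11.04 and 3.44 ± 2.92 CPM in control mice (n = 5 each, SD).

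S100a8 and S100a9, the calprotectin chains, did not follow the granule enzymes. In HSCs S100a8 was at 17.0, 11.9, 960.2, 2.70 and 0.295 CPM in Mbd3del mice and at 121, 18.2, 16.1, 8.58 and 4.46 CPM in control mice. In LMPPs it was at 3.16, 40.9, 5.996, 22.6 and 8.10 CPM in Mbd3del mice and at 3.57, 7.22, 5.95, 8.93 and 194 CPM in control mice. One library held most of each group's signal. The highest library made up 96.8% of the summed S100a8 CPM in Mbd3del HSCs, 72.0% in control HSCs, 50.6% in Mbd3del LMPPs and 88.3% in control LMPPs. S100a9 peaked in the same 4 libraries, at 338, 41.2, 14.2 and 49.4 CPM. In ALPs S100a8 reached at most 2.47 CPM in Mbd3del mice and 0.921 CPM in control mice, and in BLPs 4.86 and 4.30 CPM. S100a9 had no count in Mbd3del ALPs and reached 4.91 CPM in 1 control ALP library, and it stayed at or below 0.552 CPM in BLPs.

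Those 4 libraries also had the highest summed level of mature neutrophil markers in their groups. The summed CPM of 7 markers of such cells (Ltf, Camp, Ngp, Lcn2, Retnlg, Cxcr2 and Mmp8) was 217 in the Mbd3del HSC library of mouse10365, which contained Retnlg at 97.6 CPM and Ngp at 41.6 CPM. It was 46.7 in the control HSC library of mouse10357, 29.0 in the Mbd3del LMPP library of mouse10361 and 37.6 in the control LMPP library of mouse10381. Over the 5 libraries of a group the sum ranged from 0 to 217 in Mbd3del HSCs, 0 to 46.7 in control HSCs, 0.167 to 29.0 in Mbd3del LMPPs and 0 to 37.6 in control LMPPs. In ALPs and BLPs it stayed at or below 16.7, a highest value that was all Cxcr2. Lcn2 and Mmp8 had no count in LMPPs of either genotype. In the Mbd3del LMPP library of mouse10384 Cxcr2 alone was at 21.1 CPM, with S100a8 at 8.10 CPM. Ltf, lactoferrin, a defining protein of the later granules, was at 0 in all libraries but 1 control LMPP library with a single count. The part of RNA from mature neutrophils in the S100a8 and S100a9 values was not tested.

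With those 4 libraries left out, an alternative chosen after seeing the data, the log2 fold change of S100a8 in LMPPs over HSCs was 0.34 in Mbd3del mice, against -3.63 ± 1.70 with all libraries (edgeR adjusted p = 0.286). In control mice it was -0.89, against 0.39 with all libraries, so that the sign changed in both genotypes. The control call of S100a8 in ALPs over LMPPs was lost (log2 fold change -5.00, adjusted p = 0.321). Mpo in these 4 libraries was at 2.41, 1.31, 926 and 518 CPM, within the range of the other libraries of each group. Mpo and Ctsg kept their calls in LMPPs over HSCs in both genotypes, and Mpo in BLPs over LMPPs had an adjusted p of 0.0559 in Mbd3del mice.

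**Figure D3:**
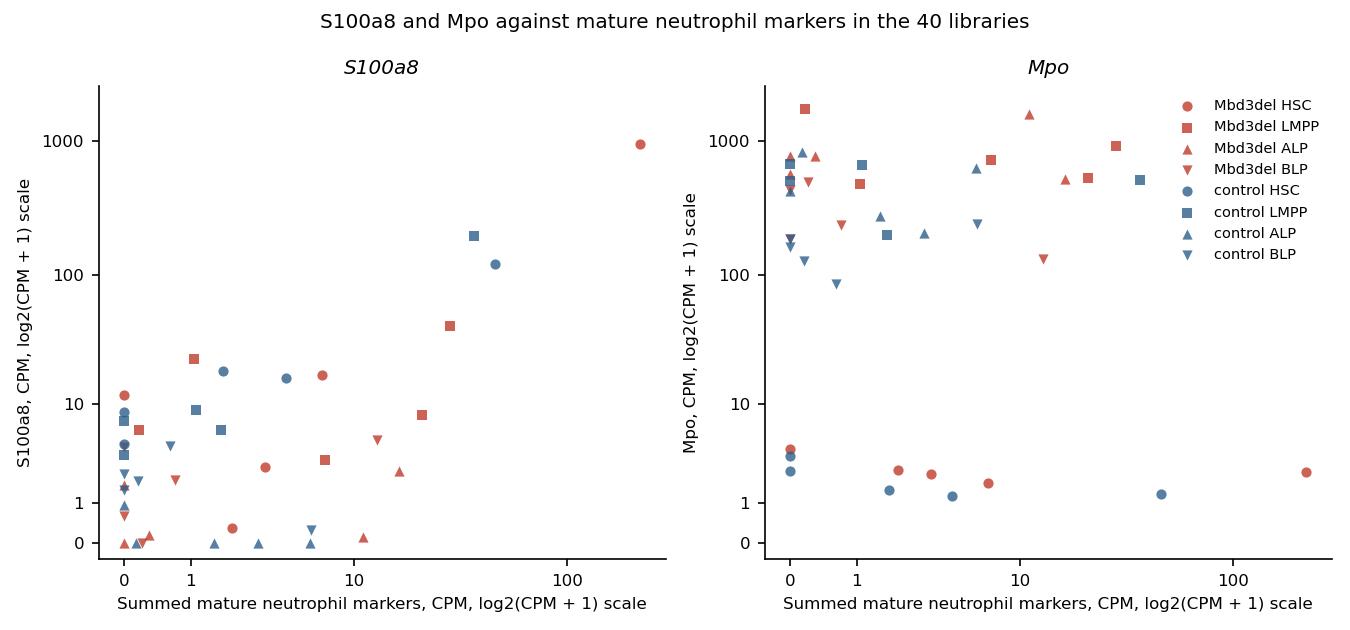
S100a8 (left) and Mpo (right) against the summed level of 7 mature neutrophil markers, all in CPM on a log2(CPM + 1) scale; a point is 1 of the 40 libraries, its colour the genotype and its shape the population. The Mbd3del HSC library with a marker sum of 217 CPM has 960.2 CPM of S100a8, while its Mpo, at 2.41 CPM, lies among the other HSC libraries.

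The remaining members gave almost no reads. Elane, neutrophil elastase, had 8 counts in all 40 libraries together, spread over 4 libraries and never above 3 in one. Its neighbour Prtn3 had 23533 counts in the same libraries. Ms4a3 had 57 counts (10.9 CPM) in the control LMPP library of mouse10372, 29 counts (4.47 CPM) in the Mbd3del ALP library of mouse10384 and at most 11 in any other. Cebpe had 37 counts (5.10 CPM) in the Mbd3del BLP library of mouse10376, 7 and 6 counts in 1 LMPP library of each genotype, and none elsewhere. These 3 genes passed the count filter in no comparison. Without the filter edgeR called none of them in the comparisons where it gave a value, and the lowest adjusted p was 0.182, for Ms4a3 in control LMPPs over HSCs, where 1 library held all of its counts.

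No member was called between Mbd3del and control mice in any population. In the order HSCs, LMPPs, ALPs and BLPs, 3, 7, 5 and 6 members were tested and 0 were called with edgeR, where 0.0176%, 0.0183%, 0.0182% and 0.0743% of all genes were. At an unadjusted p under 0.05 there were 0, 0, 1 and 2 members in the same order, and DESeq2 called 0 in each population. Of all genes, 4.11%, 5.19%, 2.3% and 8.31% had an unadjusted p under 0.05.

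Mpo was higher on average in Mbd3del mice in every population, but within the spread. Its log2 ratio of Mbd3del over control was 0.37 for HSCs (95% interval -1.45 to 2.19), 0.79 for LMPPs (-0.028 to 1.62), 0.83 for ALPs (-0.015 to 1.67) and 0.90 for BLPs (0.13 to 1.67). The BLP value had an unadjusted p of 0.0245 and an edgeR adjusted p of 0.490. The groups overlapped in all 4 populations, and mice gave all 4 populations, so these values are not independent of each other.

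Ctsg gave the widest separation. The ALP libraries of Mbd3del mice, at 77.2 to 139 CPM, all lay above those of control mice, at 1.81 to 60.8 CPM, as 0.418% of all genes did in that comparison. Group means were 107 ± 23.4 CPM in Mbd3del ALPs and 27.5 ± 21.4 CPM in control ALPs (n = 5 each, SD). The log2 ratio was 1.94 (95% interval 0.73 to 3.15), with an unadjusted p of 0.00380 and an edgeR adjusted p of 0.9999. In BLPs the means were 37.5 ± 23.0 CPM in Mbd3del mice and 11.3 ± 8.74 CPM in control mice, a log2 ratio of 1.74 (0.33 to 3.15; unadjusted p = 0.0191, edgeR adjusted p = 0.465). In LMPPs the log2 ratio of Ctsg was 0.25 (-0.69 to 1.19).

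Prtn3 changed sign along the path, with log2 ratios of -0.35 for HSCs, -0.80 for LMPPs, 0.85 for ALPs and 1.62 for BLPs, each with a 95% interval that includes 0. Mcpt8 had log2 ratios of 1.497 in LMPPs, 0.84 in ALPs and 1.71 in BLPs, and Cebpa had -0.17, -0.77 and 0.79, again with 0 inside each interval. S100a8 had 2.56 in HSCs (95% interval -1.65 to 6.76) and -1.43 in LMPPs (-3.80 to 0.95). Without the 4 libraries named above, both S100a8 values changed sign, to -0.58 and 0.63.

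**Figure D4:**
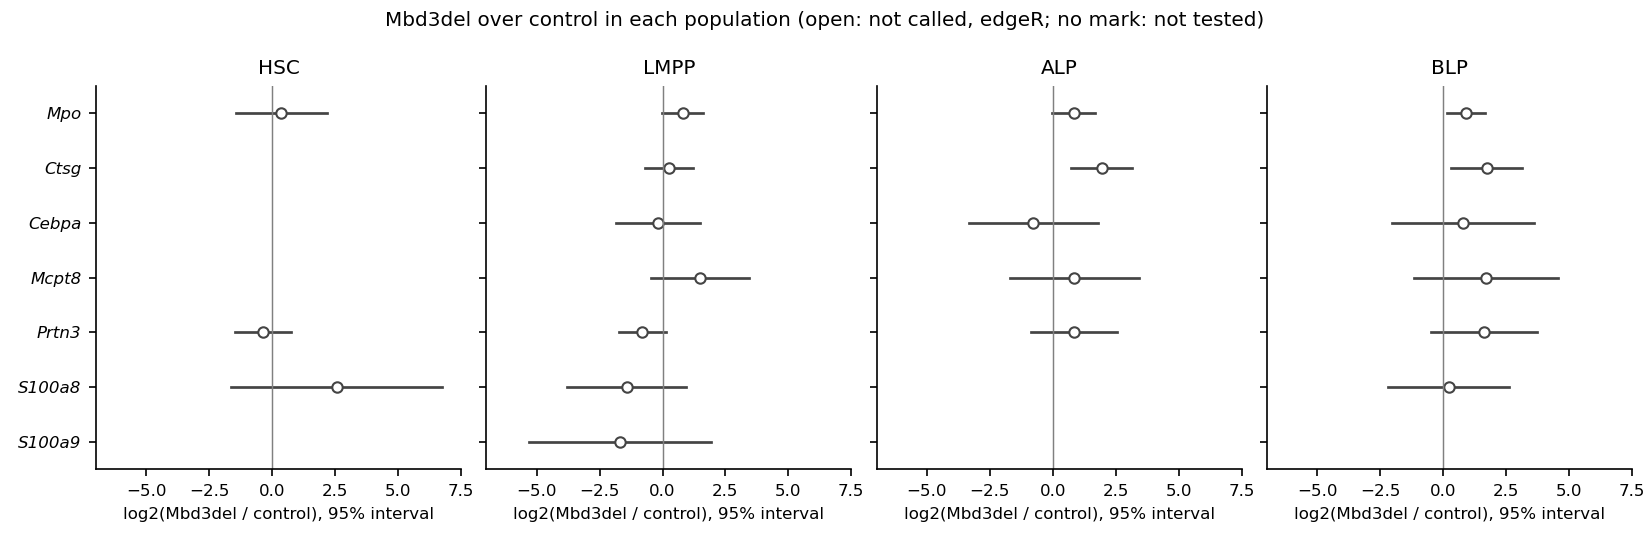
Log2 ratio of Mbd3del over control with its 95% interval (horizontal axis) for the 7 members tested in at least 1 of the 4 populations; open points are not called by edgeR and members below the count filter have no point. Intervals lie wholly above 0 only for Ctsg in ALPs and BLPs and Mpo in BLPs, before adjustment for the number of genes.

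Whether the steps themselves differed between genotypes was tested by an interaction term. Of 7, 7 and 6 members tested for the steps to LMPPs, ALPs and BLPs, 0 were called with edgeR, with an adjusted p of 0.973 or more, where 0% of all genes were called. DESeq2 called 0 members. An unadjusted p under 0.05 was seen for 1 member at the step to LMPPs (Mcpt8; 5.13% of all genes), 1 at the step to ALPs (Ctsg; 4.51%) and 0 at the step to BLPs (4.03%). For Ctsg, the step to ALPs was 1.71 log2 units less negative in Mbd3del mice than in control mice (95% interval 0.18 to 3.24).

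The other azurophil granule genes, a list of 12, moved in both directions. Over all genes, 3.75% fell in LMPPs over HSCs in Mbd3del mice and 3.18% in control mice, beside the shares that rose given above. In LMPPs over HSCs, 3 of 11 tested rose and 3 fell in Mbd3del mice, with a median log2 fold change of 0.33 against -0.041 over all genes. In control mice 4 of 10 rose and 1 fell, with a median of 0.18 against -0.0039. Nkg7, a granule membrane protein of cytotoxic and myeloid cells, rose to 546 ± 230 CPM in Mbd3del LMPPs, against 38.0 ± 20.8 CPM in HSCs, and to 669 ± 342 CPM in control LMPPs, against 35.4 ± 17.8 CPM in HSCs (n = 5 each, SD). Serpinb1a, an inhibitor of elastase, cathepsin G and proteinase 3, rose by 3.32 log2 units in Mbd3del mice (edgeR adjusted p = 1.85e-05) and 3.15 in control mice (adjusted p = 0.000125). Prss57, a serine protease of azurophil granules, rose by 1.80 in Mbd3del mice (edgeR adjusted p = 0.0165) and 3.42 in control mice (adjusted p = 0.00335). Igsf6, a membrane protein of myeloid cells, fell in Mbd3del mice, to 0.0333 ± 0.0745 CPM in LMPPs, against 8.34 ± 7.35 CPM in HSCs. It could pass the filter only through the HSC libraries, so that only a fall could be called. In control mice Igsf6 had no count in LMPPs either and was not tested, so no difference between genotypes is read from this. Cd68, a lysosomal glycoprotein of macrophages, rose in control mice by 1.86 log2 units. The other falls were those of Cd63 and Lyz2 in Mbd3del mice and of Cd63 in control mice.

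After LMPPs no gene of that list rose by the test. Of all genes, 1.11%, 0.507% and 4.67% rose in ALPs over LMPPs, BLPs over ALPs and BLPs over LMPPs in Mbd3del mice, and 0.469%, 0.238% and 1.68% in control mice. The shares that fell in ALPs over LMPPs and BLPs over LMPPs were 1.07% and 3.01% in Mbd3del mice and 0.469% and 1.23% in control mice. In ALPs over LMPPs, 2 of 10 fell in Mbd3del mice (Cd63 by 1.38 and the lysozyme gene Lyz2 by 1.27 log2 units) and 1 of 10 in control mice (Cd63, by 3.55). In BLPs over LMPPs, 3 of 10 fell in each genotype. These were Cd63, Lyz2 and Ctsd (cathepsin D) in Mbd3del mice and Cd63, Lyz2 and Cd68 in control mice. Between genotypes, Cd63 was higher in Mbd3del ALPs, at 99.1 ± 30.1 CPM, than in control ALPs, at 11.3 ± 5.48 CPM (n = 5 each, SD; log2 ratio 3.11, edgeR adjusted p = 0.0265), 1 of 10 tested. In BLPs 2 of 10 were higher in Mbd3del mice. Cd63, a tetraspanin that marks azurophil granules and lysosomes, was at 68.7 ± 30.3 CPM in Mbd3del BLPs and 8.03 ± 2.76 CPM in control BLPs, and Cd68 at 177 ± 86.5 CPM and 24.6 ± 9.64 CPM in the same groups (edgeR adjusted p = 0.0105 for both). Of all genes, 0.0182% were called between genotypes in ALPs and 0.0743% in BLPs. With 1 mouse left out, edgeR called 0 to 4 genes in all in ALPs and 0 to 43 in BLPs. Each of these Cd63 and Cd68 calls was thus lost in at least 1 such fit.

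Proteins of the later, secondary and tertiary granules were mostly below the filter, with 2 to 4 of 14 genes tested in any comparison of 2 groups. In Mbd3del mice Cybb, the NADPH oxidase subunit gp91phox, rose in BLPs over ALPs, to 172 ± 90.5 CPM in BLPs, against 13.2 ± 7.07 CPM in ALPs. Padi4, a histone citrullinating enzyme, fell in Mbd3del BLPs over LMPPs by 2.48 log2 units, and in control mice its log2 fold change was -0.94 (edgeR adjusted p = 0.744). The control values of Cybb were 67.4 ± 61.3 CPM in BLPs and 5.42 ± 4.48 CPM in ALPs, with an edgeR adjusted p of 0.732.

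Of 12 myeloid transcription factors, Irf8, which directs monocyte and dendritic cell fates and restrains the granulocyte fate, had the largest called change at the step to ALPs. It was at 519 ± 167 CPM in Mbd3del ALPs and 40.5 ± 40.3 CPM in Mbd3del LMPPs, and at 542 ± 132 CPM in control ALPs and 35.8 ± 40.3 CPM in control LMPPs (n = 5 each, SD). The log2 fold change was 3.66 in Mbd3del mice (edgeR adjusted p = 0.00189) and 3.94 in control mice (adjusted p = 0.00258). Mpo was not called at this step, as given above. At that step 2 of 10 tested factors rose and 1 fell in Mbd3del mice (Irf8, Myb and, lower, Nfe2), and 1 rose and 1 fell of 10 in control mice (Irf8 and, lower, Nfe2). Of all genes, 1.11% rose and 1.07% fell there in Mbd3del mice, and 0.469% rose and 0.469% fell in control mice. In LMPPs over HSCs, Gata2, a factor of stem, mast cell and megakaryocyte progenitors, fell by 2.80 log2 units in Mbd3del mice and 3.31 in control mice. It was the only fall among 11 and 10 tested factors, and Irf8 was the only rise, in Mbd3del mice (log2 fold change 2.57, edgeR adjusted p = 0.0364; 2.70 and 0.0663 in control mice). Over all genes, 2.99% rose and 3.75% fell in that comparison in Mbd3del mice, and 2.82% rose and 3.18% fell in control mice. In BLPs over LMPPs, 3 of 11 rose and 2 fell in Mbd3del mice and 1 of 11 rose and 2 fell in control mice. The shares of all genes that rose and fell were 4.67% and 3.01% in Mbd3del mice and 1.68% and 1.23% in control mice. Klf4, a monocyte factor, was among the rises in Mbd3del mice, at 9.19 ± 7.40 CPM in BLPs and 0.200 ± 0.447 CPM in LMPPs. In Mbd3del mice Klf4 could pass the filter only through the BLP libraries, so that only a rise could be called. Control mice had 11.7 ± 12.7 CPM of Klf4 in BLPs and 2.40 ± 3.29 CPM in LMPPs, with an edgeR adjusted p of 0.730.

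Of 14 myeloid receptors and surface proteins, 4 of 9 tested rose and 1 fell in LMPPs over HSCs in Mbd3del mice, and 4 of 10 rose and none fell in control mice. Of all genes, 2.99% rose and 3.75% fell there in Mbd3del mice, and 2.82% rose and 3.18% fell in control mice. Cd33 and Clec12a, inhibitory receptors of myeloid cells, rose in both genotypes, by 4.81 and 3.43 log2 units in Mbd3del mice and by 6.63 and 4.97 in control mice. Csf3r, the receptor for granulocyte colony-stimulating factor, was at 108 ± 56.1 CPM in Mbd3del LMPPs, against 38.9 ± 16.5 CPM in HSCs (edgeR adjusted p = 0.0312), and at 64.3 ± 36.5 CPM in control LMPPs, against 19.1 ± 10.5 CPM in HSCs (adjusted p = 0.0708). In ALPs over LMPPs, 1 of 11 tested rose and 2 fell in Mbd3del mice, where Csf3r fell by 2.20 log2 units (edgeR adjusted p = 0.0100). In control mice Csf3r had a log2 fold change of -1.61 (edgeR adjusted p = 0.538). In BLPs, Csf3r was at 1.53 ± 2.42 CPM in Mbd3del mice and 2.07 ± 4.32 CPM in control mice, while Mpo averaged 297 and 160.1 CPM in the same groups. Which cells of a pool held either RNA was not tested. In BLPs over LMPPs 2 of 11 rose and 2 fell in Mbd3del mice, and 1 of 10 rose and 1 fell in control mice. Over all genes, 4.67% rose and 3.01% fell in that comparison in Mbd3del mice, and 1.68% rose and 1.23% fell in control mice. For ALPs over LMPPs in Mbd3del mice, 1.11% of all genes rose and 1.07% fell.

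The genes whose levels followed Mpo most closely over the 40 libraries were not granule genes. By Pearson correlation of log2(CPM + 1) among 13772 genes, the nearest were Sstr2 (r = 0.950), Cd48 (0.939), Cst7 (0.938), Tespa1 (0.936), Flt3 (0.935), Ubash3a (0.929), Adgrg3 (0.927) and Ighm (0.924). Cd48 and Flt3 encode surface proteins used in the sort, and the libraries share animals, so these values describe the sorted groups and carry no test. All 8 had a low median in HSCs and a higher one in LMPPs, ALPs and BLPs, as did Mpo. Among the members, Ctsg followed Mpo most closely (r = 0.900), then Mcpt8 (0.746) and Cebpa (0.701), while Prtn3 did not (-0.357). For Cebpa the nearest genes were Igfbp4 (r = 0.715), Il1r1 (0.709), Itgb7 (0.708), Ubash3a (0.692), AC174780.1 (0.690), Flt3 (0.666), Sstr2 (0.665) and Wfdc17 (0.662).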

How the data were processed

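RNA from pools of sorted bone marrow cells was sequenced by Smart-seq2, per the labels' protocols, a method that marks neither strand nor molecules. Per the submitters' processing notes, STAR 2.5.2b and HTSeq 0.6.1p1 were used with GRCm38. The authors deposited raw counts per gene, with 79325 additional rows for repeat regions (0.205% to 2.28% of a library), which were left out. Gene identifiers were matched to GENCODE M21 (49326 of 49585). CPM were computed after TMM scaling over all 40 libraries, except the Mbd3 values and the level of 3 counts, which are per library total without that scaling. Each pair of groups was tested with edgeR 4.0.16 (quasi-likelihood F test, filterByExpr with a minimum count of 10, R 4.3.3), with Benjamini-Hochberg adjustment over all genes tested and a threshold of 0.05. Called means past that threshold.

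The members and lists were chosen with earlier results of these data known. Nothing is therefore read from the number of genes called in a list. All members are named. From each list up to 4 called genes per comparison are named, the largest changes first, if 1 of the groups averaged 5 CPM or more. Alternatives were no scaling, RLE size factors, no filter, DESeq2 1.42.0, a joint fit, each mouse left out, mouse10372 and mouse10381 both left out, a replicate block and, chosen after seeing the data, 4 libraries left out. Populations with the same mouse number came from the same animal, which gives the pairing; over 40 such pairs the deviations from group means correlated at -0.154 to 0.166, with a median of 0.0406 and 8 pairs over 0.1. The p-values measure the spread between libraries, 1 per mouse in each group, which holds differences between animals, sorts and library preparation together. The main fits treat the libraries of a mouse as independent.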

Additional observations from a re-analysis of the deposited data

Results flagged for a closer look

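Among 46 groups of 5 libraries with a mean of at least 1 CPM, 12 held a library far from the other 4 by Dixon's test on CPM. Chance flags about 1 in 20 for normally distributed values only. The CPM of genes with many zeros are skewed, so no excess over chance is read from this number. Of the 12, 7 concern calprotectin and were described with the neutrophil markers. S100a8 was at 960.2 CPM in the Mbd3del HSC library of mouse10365, at 121 CPM in the control HSC library of mouse10357 and at 194 CPM in the control LMPP library of mouse10381. S100a9 was at 338 CPM, 41.2 CPM and 49.4 CPM in the same libraries and at 14.2 CPM in the Mbd3del LMPP library of mouse10361.

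Mpo was at 1611 CPM in the Mbd3del ALP library of mouse10376, with 523 to 783 CPM in the other 4. Cebpa was at 5.76 CPM in the Mbd3del LMPP library of mouse10360, below the 9.80 to 11.2 CPM of the others. Mcpt8 was at 57.6 CPM in the control ALP library of mouse10381, with 0 to 10.3 CPM in the others. Ms4a3, at 10.9 CPM in the control LMPP library of mouse10372, and Cebpe, at 5.10 CPM in the Mbd3del BLP library of mouse10376, were at 0 in the other 4 libraries of their groups.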

How the results depend on the processing

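Of 902 fold changes of members recomputed under an alternative, 835 kept their direction and their side of the threshold, 28 lost a call, 6 gained one and 33 changed sign. With the replicate block, the pairing by mouse, control ALPs over LMPPs had 1 called member; it changed no other count of members. Over all genes the block moved the calls from 102 to 54 for control ALPs over LMPPs, 29 to 14 for control BLPs over ALPs, 242 to 154 for Mbd3del ALPs over LMPPs and 69 to 41 for Mbd3del BLPs over ALPs. For LMPPs over HSCs it moved them from 662 to 559 in control mice and from 766 to 697 in Mbd3del mice. For BLPs over LMPPs the calls fell from 311 to 258 in control mice and rose from 849 to 1031 in Mbd3del mice.

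Counts of called members moved as follows. In Mbd3del mice, DESeq2 gave 3 for ALPs over LMPPs (Prtn3, S100a8 and S100a9) and 2 for BLPs over ALPs; leaving out 1 mouse gave 0 to 1 for ALPs over LMPPs and 1 to 3 for BLPs over LMPPs. In control mice, LMPPs over HSCs gave 4 (Mpo, Ctsg, Cebpa and Mcpt8) with no filter, DESeq2 or the joint fit. ALPs over LMPPs gave 1 with no scaling, DESeq2, without each mouse and without the 4 libraries, and 0 without mouse10372 and mouse10381. BLPs over ALPs gave 1 with no filter or DESeq2, and BLPs over LMPPs gave 1 to 3 with 1 mouse left out.

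Sign changes concerned values that were not called. In Mbd3del mice, leaving out 1 mouse gave S100a8 -4.63 to 1.25 for LMPPs over HSCs (block 0.40, 4 libraries out 0.34), and for ALPs over LMPPs Mpo -0.59 to 0.37 and Mcpt8 -1.44 to 0.18. In control mice it gave S100a8 -2.68 to 2.18 (-2.91 without the pair, block -0.83, 4 libraries out -0.89) and S100a9 -3.08 to 0.36 (-2.92 without the pair) for LMPPs over HSCs. For ALPs over LMPPs it gave Mpo -0.28 to 0.19, Cebpa -1.32 to 0.22 and Mcpt8 -1.20 to 0.37 (-0.85 without the pair, block -1.35). For Mbd3del over control it gave Prtn3 -0.68 to 0.035 (0.18 without the pair) and S100a8 -2.10 to 4.08 in HSCs (4 libraries out -0.58). In LMPPs it gave S100a8 -2.13 to 1.33 (1.29 without the pair, 0.63 with 4 libraries out), S100a9 -4.15 to 1.24 (0.82 without the pair) and Cebpa -0.47 to 0.13. It gave Cebpa -1.32 to 0.055 in ALPs (0.043 without the pair) and S100a8 -0.24 to 0.68 in BLPs. The pair is the 2 control mice with doubtful sex labels. The cause of these shifts was not tested.

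Over all genes, DESeq2 called 1704, 697, 292 and 1781 genes for the 4 comparisons of populations in Mbd3del mice (LMPPs over HSCs, ALPs over LMPPs, BLPs over ALPs, BLPs over LMPPs), where edgeR called 766, 242, 69 and 849. In control mice DESeq2 called 1682, 453, 154 and 839, and edgeR 662, 102, 29 and 311. For Mbd3del over control, DESeq2 called 43, 104, 38 and 245 in HSCs, LMPPs, ALPs and BLPs, and edgeR 2, 2, 2 and 8.

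Elane, Ms4a3 and Cebpe, at 0 in most libraries, were tested only without the filter on low counts, and a difference in them was not detectable at library totals of 2974305 to 9082610. No batch is given in the labels, so batches could not be compared.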

Other observations

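Genes of other myeloid cells had their own course through the 4 populations. The summed CPM of 11 monocyte and macrophage markers had a median over 5 libraries of 11.2 in Mbd3del and 4.83 in control HSCs, and of 12.8 and 12.6 in LMPPs. It was 159 and 396 in ALPs and 553 and 569 in BLPs, the reverse of the course of Prtn3. Ly86 was at 373 ± 73.8 CPM in Mbd3del BLPs, against 1.84 ± 1.40 CPM in Mbd3del LMPPs (n = 5 each, SD). Ly6c2 was higher in Mbd3del BLPs, at 203 ± 132 CPM, than in control BLPs, at 30.9 ± 13.3 CPM (edgeR adjusted p = 0.0384). With 1 mouse left out, edgeR called 0 to 43 genes in all in that comparison, so the Ly6c2 call was lost in at least 1 such fit.

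Of 12 other basophil and mast cell genes, at most 4 had a count in any 1 group. Cma1, Tpsb2, Tpsab1, Mcpt4 and Gzmb had no count in any library. Cpa3 and Hdc had counts in every group, and Prss34, Ms4a2, Fcer1a, Il1rl1 and Cd200r3 in some groups. The summed CPM of the 12 reached 98.1 in Mbd3del and 122 in control ALPs, and at most 29.2 in any library of another population. Of 9 eosinophil genes the sum was at most 19.5 CPM in any library.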
